A study of Mus musculus with 8 samples.

Results

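The comparison of Ino80 knockout with wild type in primed mouse embryonic stem cells rests on 4 of the series' 8 RNA-seq libraries. They were chosen by their labels: 2 libraries labelled knockout and 2 labelled wild type, all of the line INO80 CKO, which has a conditional Ino80 allele, and all in the primed state. Both groups were grown in N2B27 medium with FGF2 at 12 ng/ml, Activin A at 20 ng/ml and the tankyrase inhibitor XAV939 at 2 uM on fibronectin. For deletion, cells had 100 nM 4-OHT for 2 days and were kept for 2 more days. The labels do not say whether wild-type cells also had 4-OHT, so 4-OHT and deletion cannot be told apart. The labels name a single line and do not say whether the libraries of a group are separate cultures, so the spread behind every p-value may be technical. The other 4 libraries are from the same line in the naive state and are used only where the effects of both states are compared.

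INO80 is a multi-subunit enzyme that uses ATP to slide nucleosomes and acts on those with the histone variant H2A.Z. Its ATPase subunit is encoded by Ino80. Bivalency, the term in the series title, means that a promoter carries the activating mark H3K4me3 together with the Polycomb mark H3K27me3, as many developmental genes do that are kept ready but low in pluripotent cells. Primed cells resemble the epiblast just before gastrulation: they depend on FGF and Activin, and part of them can enter the primitive streak, the source of mesoderm and endoderm.

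Values are RPKM (reads scaled to gene length and library size) as the authors deposited them, and differences are knockout minus wild type on the log2(RPKM + 1) scale ± SE. A gene was tested if it had at least 1 RPKM in at least 2 of the 4 libraries, which left 12225 genes of 24505. It is called higher or lower if the Benjamini-Hochberg adjusted p of limma was under 0.05. Each result was computed on the deposited values and again after quantile normalization, which gives the 4 libraries one common distribution. "Rose" and "fell" are used for genes called in the same direction both ways. A range over left-out libraries is that of 4 fits, each without 1 library. Without a knockout library the wild-type pair alone sets the variance, so a deposited call can end though the difference hardly moves. Where a list has 0 genes called in one direction over all 4 libraries, 0 of its genes also had an unadjusted limma p under 0.05 in that direction; counts with a library left out are by adjusted p alone.

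The scale of whole libraries differed between the groups. The knockout libraries summed to 360792 and 341480 RPKM and the wild-type libraries to 442061 and 507598, and the median difference over all genes was -0.58 as deposited and 0.02 after quantile normalization. The deposited median depended on level: it was -0.77 for genes at a mean log2(RPKM + 1) of 2 to 3 and -0.22 at 7 or more. The shares over all genes that are set beside lists do not take level into account. As deposited, 476 genes (3.89%) were called higher and 7016 (57.4%) lower. With quantile normalization the counts were 4959 higher (40.6%) and 4547 lower (37.2%). All 476 and all 4547 of these were called in the same direction both ways, and 114 genes (0.933%) were called in opposite directions. The knockout libraries did not overlap wild type in 6.76% of genes above it and in 77.2% below it. Wild-type replicate 2 stood a median of 0.33 above wild-type replicate 1, while the knockout replicates differed by -0.07. The deposited counts moved with the library left out, and in such a fit the pair of the other group alone sets the variance. The median residual SD was 0.233 with a knockout library left out and 0.0586 with a wild-type library left out, against 0.174 with all 4. After quantile normalization it lay between 0.0312 and 0.0351 over the left-out libraries. With bulk RNA, fewer cells of a kind and less RNA per cell cannot be told apart.

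**Figure D1:**
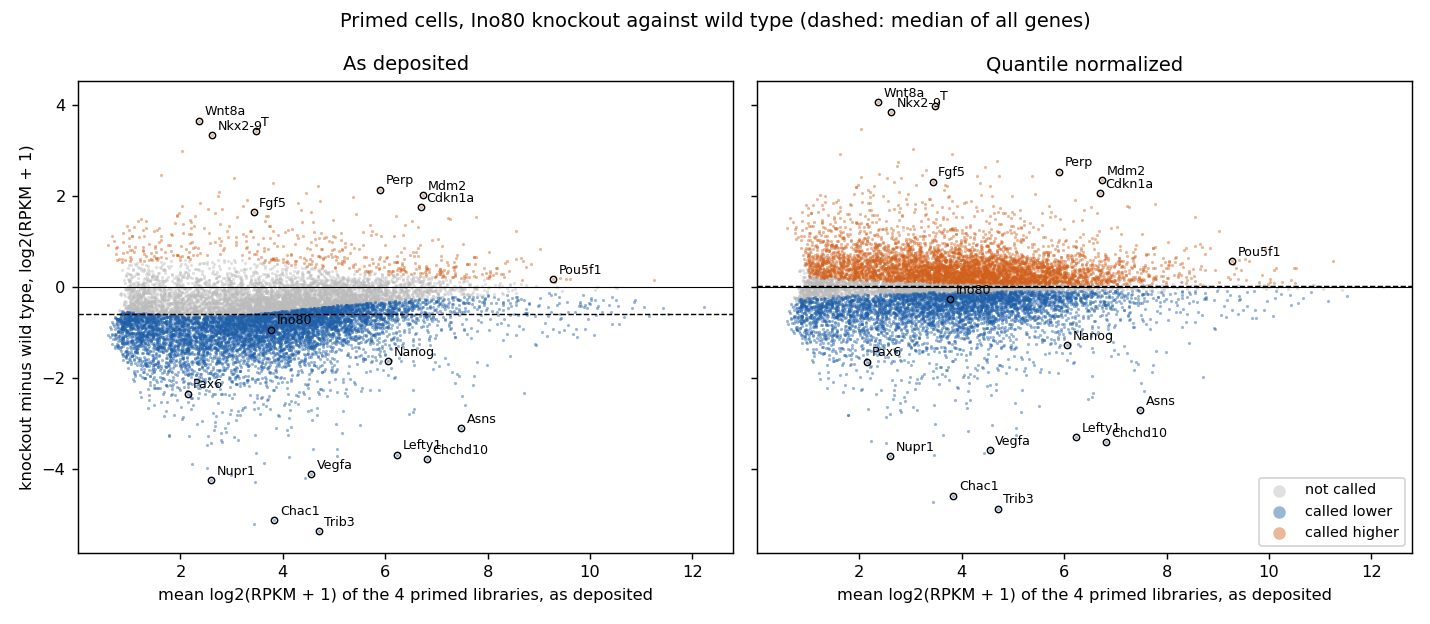
Each point is 1 of the 12225 genes, at its mean log2(RPKM + 1) over the 4 primed libraries (x axis) and its knockout minus wild type difference (y axis), as deposited on the left and after quantile normalization on the right. Orange points are called higher, blue lower and grey neither. The dashed line is the median of all genes, -0.58 on the left and 0.02 on the right. In both panels Trib3 and Chac1 lie near the bottom and Wnt8a, T and Nkx2-9 at the top.

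The markers fitted the label of primed pluripotent cells in both groups. Pou5f1, the central pluripotency factor, stood at 667 and 649 RPKM in the knockout libraries and at 560 and 604 in wild type. The 5 markers of primed epiblast summed to 278 and 258 RPKM in the knockout and 274 and 313 in wild type. Dnmt3b made up most of these sums, at 176 and 168 RPKM against 175 and 190. Of the others, Fgf5 was called higher as deposited, Pou3f1 and Zic2 lower, and Otx2 neither. The 7 naive markers summed to only 2.87 and 2.71 RPKM in the knockout and 7.34 and 10.2 in wild type, with Prdm14 under 0.1 RPKM in all 4 libraries. The 17 markers of other cell types summed to 55.8 and 51.4 RPKM against 49.0 and 67.3, so the sums overlapped. Of these, the blood genes Ptprc and Cd3e and the trophoblast genes Elf5 and Hand1 were under 0.1 RPKM everywhere, while the mesoderm gene T was high in the knockout and the neural genes Pax6 and Sox1 were high in wild type.

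Ino80 itself was at 9.12 and 8.74 RPKM in the knockout libraries and at 15.9 and 20.3 in wild type. The groups did not overlap, which also held for 77.2% of all genes below wild type, and the knockout kept 0.494 of the wild-type mean. The difference was -0.93 ± 0.25 (limma adjusted p = 6.3e-04) as deposited and -0.26 (adjusted p = 9.0e-04) after quantile normalization. Relative to the median of all genes, the deposited difference was -0.36. Genes at a mean log2(RPKM + 1) of 3 to 4, where Ino80 lies, had a lower deposited median of -0.66. As deposited, the call ended without knockout replicate 1 or 2, while the difference stayed at -0.96 and -0.91. RPKM over the whole gene does not show which exons the remaining reads cover. Of the 16 subunit genes of the complex, 1 was called higher and 8 lower as deposited, and 8 higher and 3 lower after quantile normalization. Their medians were -0.31 and 0.13. Among all genes 57.4% were lower as deposited, and 40.6% were higher and 37.2% lower after quantile normalization. Actr5, a subunit that couples the ATPase to nucleosome sliding, went from 17.3 and 22.7 RPKM in wild type to 8.45 and 7.98 in the knockout, a difference of -1.18 ± 0.25. Ino80b went the other way, from 15.6 and 20.5 to 27.9 and 23.1 RPKM, a difference of 0.48 ± 0.21. As deposited, the calls of Actr5 and Ino80b ended with knockout replicate 1 or 2 left out (limma adjusted p up to 0.221 and 0.652), and after quantile normalization both held without any single library.

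Of 14 genes of H2A.Z and its exchange factors, 0 were called higher and 8 lower as deposited, and 6 were higher and 1 lower after quantile normalization. Over all genes the shares were 57.4% lower as deposited, and 40.6% higher and 37.2% lower after quantile normalization. H2afz, which encodes the main H2A.Z, stood at 363 and 332 RPKM in the knockout and at 384 and 420 in wild type. Its difference of -0.21 ± 0.06 as deposited became 0.05 after quantile normalization, where it was not called. Anp32e, a chaperone that takes H2A.Z off chromatin, stood at 91.8 and 87.3 RPKM against 133 and 145, with differences of -0.63 ± 0.11 and -0.39. Its groups did not overlap, as in 77.2% of all genes below wild type. Median centring of the libraries turned that difference to 0.06, and as deposited the calls of H2afz and Anp32e ended without knockout replicate 2 (limma adjusted p = 0.476 and 0.0695), that of H2afz also without knockout replicate 1 or wild-type replicate 2.

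Enzymes of the bivalent marks split by gene. Of 24 Polycomb genes, 2 were called higher and 11 lower as deposited and 13 higher and 9 lower after quantile normalization, with 2 and 9 in the same direction both ways. All genes together were 3.89% higher and 57.4% lower as deposited, and 40.6% and 37.2% after quantile normalization. Eed, a core subunit of the H3K27 methyltransferase PRC2, rose from 40.1 and 48.3 RPKM to 68.1 and 61.4, a difference of 0.54 ± 0.15. Rbbp7, a histone-binding PRC2 subunit, rose by 0.31 ± 0.10. The alternative PRC2 catalytic subunit Ezh1 fell from 7.45 and 10.6 RPKM to 1.96 and 1.84, a difference of -1.77 ± 0.29. Phf19, a PRC2 accessory subunit, fell by 1.76 ± 0.27, and the PRC1 chromobox gene Cbx7 fell by 1.53 ± 0.17. Cbx7 was the most abundant of these 3 falling genes, with 67.2 and 77.2 RPKM in wild type and 25.5 and 23.2 in the knockout.

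Of 16 genes of the H3K4 methylation complexes, 0 were called higher and 8 lower as deposited, and 8 higher and 2 lower after quantile normalization. The shares over all genes were 57.4% lower as deposited, and 40.6% higher and 37.2% lower after quantile normalization. Ash2l, a core subunit shared by these complexes, fell from 48.0 and 55.5 RPKM to 27.7 and 26.4, a difference of -0.91 ± 0.17. Among 7 DNA methylation enzymes, of which 6 were called higher after quantile normalization, only Tet2, which oxidises methylcytosine, was called lower both ways, from 3.41 and 4.85 RPKM to 0.445 and 0.448, a difference of -1.81 ± 0.27. Dnmt3b, the de novo methyltransferase that is high in primed cells, was at 176 and 168 RPKM against 175 and 190 and was not called as deposited (-0.08 ± 0.09, limma adjusted p = 0.413), and after quantile normalization it was called higher at 0.12. Among 19 ATPases and subunits of other remodellers 1 was higher and 6 lower as deposited (0 to 10 lower over the left-out libraries) and 10 higher and 4 lower after quantile normalization, with Smarcc1, a scaffold of the SWI/SNF complex, at 0.35 ± 0.12 and Chd2 at -1.44 ± 0.24. With knockout replicate 1 or 2 left out, the deposited calls of Eed, Rbbp7, Smarcc1, Ezh1, Ash2l and Chd2 ended (limma adjusted p up to 0.362, 0.333, 0.452, 0.100, 0.122 and 0.0678), and that of Phf19 without knockout replicate 2 (0.0734). After quantile normalization each of these 7 calls held without any single library, and the deposited count of Polycomb genes called lower ranged from 2 to 19 over the left-out libraries.

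Of the 15 largest falls in single genes, 8 were targets listed here under the integrated stress response. When cells lack amino acids or their endoplasmic reticulum is stressed, phosphorylation of the initiation factor eIF2 favours translation of ATF4, which with partners such as the C/EBP factor CHOP (gene Ddit3) binds composite sites and switches on amino acid synthesis, uptake and tRNA charging. All 25 genes of a list of these factors and targets were called lower as deposited (20 to 25 over the left-out libraries), and 23 were lower and 1 higher after quantile normalization, against 57.4% and 37.2% of all genes called lower. The medians of the list were -2.15 and -1.70. Atf4 fell from 384 and 400 RPKM to 130 and 122, a difference of -1.63 ± 0.08. Ddit3 fell from 105 and 122 to 9.16 and 8.35 RPKM, a difference of -3.55 ± 0.18. In both genes the groups were far apart and the replicates close together.

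Some targets fell further than Atf4. The pseudokinase gene Trib3, a feedback inhibitor of ATF4, fell from 151 and 183 RPKM to 3.29 and 2.84. Chac1, which encodes an enzyme that breaks down glutathione, fell from 73.8 and 93.3 to 1.40 and 1.45 RPKM. The stress regulator gene Nupr1 fell from 22.4 and 28.7 to 0.431 and 0.372 RPKM. The differences of these 3 genes were -5.36 ± 0.20, -5.11 ± 0.25 and -4.23 ± 0.29, and after quantile normalization -4.86, -4.58 and -3.71 (limma adjusted p = 5.8e-07, 7.1e-07 and 6.0e-07).

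The 78 tested genes of 4 ATF4-linked lists (factors, amino acid enzymes, transporters and tRNA synthetases) were searched for the core of the composite site, TGATGNAA on either strand, in the 250 bases before each gene's start in the RefSeq promoter table (GRCm38.p6). Of 57 member genes with an entry, 15 (26.3%) held it, against 213 of 9277 tested genes (2.30%) and 1134 of 32851 promoters (3.45%). The lists were chosen for their link to ATF4, so a larger share than over all genes was likely beforehand and says nothing about the knockout. Among the members it was in 14 of the 48 that were called lower after quantile normalization and in 1 of the 7 called higher. With only 7 genes called higher, these shares cannot be compared. A match is a stretch of letters and not a measured site. The promoter stretches of 5 of the falling genes follow because they show how near to the start the match lies: 193 bases before it in Chac1, 110 in Nupr1, 103 in Pck2, 30 in Gars and 23 in Asns. They are written 5′ to 3′ on the gene's strand with the match in capitals.
Chac1 (chr2:119351019-119351086, plus strand): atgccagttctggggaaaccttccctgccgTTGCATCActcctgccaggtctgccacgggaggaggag
Nupr1 (chr7:126625543-126625610, minus strand): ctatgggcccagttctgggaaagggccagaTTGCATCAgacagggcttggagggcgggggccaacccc
Pck2 (chr14:55540133-55540200, plus strand): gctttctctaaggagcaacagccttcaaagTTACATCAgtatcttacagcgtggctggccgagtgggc
Gars (chr6:55037941-55038000, plus strand): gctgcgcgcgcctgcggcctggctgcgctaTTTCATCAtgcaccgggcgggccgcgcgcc
Asns (chr6:7693210-7693262, minus strand): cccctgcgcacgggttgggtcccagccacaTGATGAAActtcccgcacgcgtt

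The metabolic branch of the same response mostly fell with it. Its counts stand against 3.89% of all genes higher and 57.4% lower as deposited, and 40.6% and 37.2% after quantile normalization. Of 19 enzymes of serine, asparagine, proline and one-carbon metabolism, 2 were called higher and 15 lower as deposited, and 4 higher and 14 lower after quantile normalization (medians -1.85 and -1.62). Asns, asparagine synthetase, fell from 512 and 529 RPKM to 61.5 and 59.0, a difference of -3.09 ± 0.09. Pycr1, which makes proline, fell by 3.87 ± 0.26, and the mitochondrial PEP carboxykinase gene Pck2 by 3.71 ± 0.18. Aldh1l2, a mitochondrial folate enzyme, fell from 10.8 and 15.3 RPKM to 0.419 and 0.462. Ass1, which makes argininosuccinate, was a member that rose, from 10.0 and 13.5 to 34.1 and 32.6 RPKM, a difference of 1.44 ± 0.22. Mthfd1, the cytosolic folate enzyme, rose by 0.42 ± 0.11. As deposited, both of these calls ended with knockout replicate 1 or 2 left out (limma adjusted p up to 0.0789 and 0.270), and both held after quantile normalization without any single library.

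Amino acid carriers and tRNA synthetases mostly showed the same direction. Among all genes 57.4% were lower as deposited, and 40.6% were higher and 37.2% lower after quantile normalization. Of 16 transporter genes 14 were called lower as deposited (9 to 16 over the left-out libraries), and 2 higher and 13 lower after quantile normalization. Slc7a5, the light chain of the large neutral amino acid exchanger, fell from 450 and 479 RPKM to 78.7 and 73.9, a difference of -2.59 ± 0.09. The glycine carrier gene Slc6a9 fell by 3.24 ± 0.27, the cationic carrier gene Slc7a1 by 2.57 ± 0.22 and Slc1a4 by 2.39 ± 0.19. Of 20 cytosolic aminoacyl-tRNA synthetase genes, which encode the enzymes that load tRNAs, 15 were called lower both ways, and 4 were called higher after quantile normalization only. Gars, the glycine enzyme, fell from 452 and 462 RPKM to 142 and 138. Sars, Aars and Gars, for serine, alanine and glycine, fell by 2.25 ± 0.12, 1.73 ± 0.10 and 1.70 ± 0.08.

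**Figure D2:**
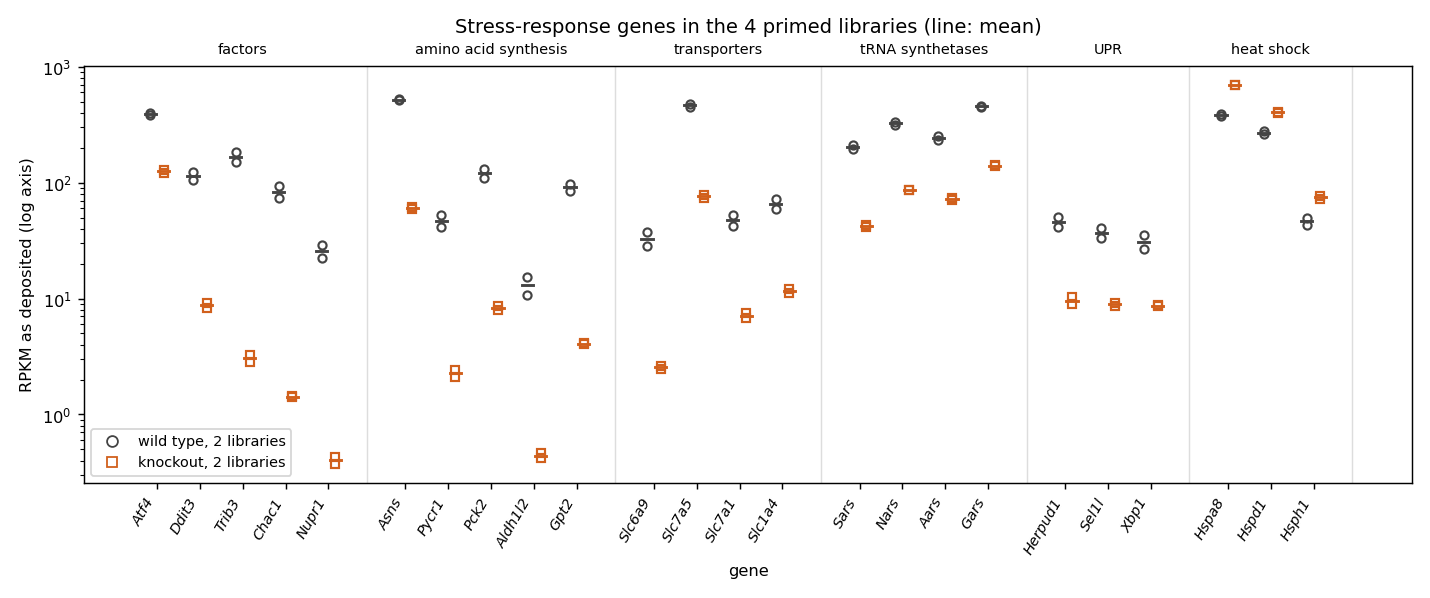
Deposited RPKM (log axis) of 24 stress-response genes (x axis) in the 2 wild-type libraries (grey circles) and the 2 knockout libraries (orange squares), with a line at each mean. In the first 5 sets the knockout points lie below wild type with no overlap, by the largest distance for Trib3, Chac1 and Nupr1, and the 3 heat shock genes at the right lie above it.

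Other stress programmes did not follow in one direction. Counts here stand against 3.89% of all genes higher and 57.4% lower as deposited, and 40.6% and 37.2% after quantile normalization. Of 23 genes of endoplasmic reticulum chaperones and the unfolded protein response, 2 were called higher and 17 lower as deposited (8 to 19 lower over the left-out libraries), and 6 and 16 after quantile normalization (medians -0.71 and -0.29). The degradation factor genes Herpud1 and Sel1l fell by 2.15 ± 0.21 and 1.93 ± 0.22, and Xbp1, a transcription factor of the response, fell from 26.7 and 35.0 to 8.72 and 8.59 RPKM. The folding enzyme gene Pdia3 instead rose from 163 and 173 to 274 and 260 RPKM, a difference of 0.67 ± 0.08. Of 15 heat shock protein genes, 7 were called higher and 4 lower as deposited, and 11 higher and 0 lower after quantile normalization, with medians of 0.16 and 0.57. Hspa8, the constitutive HSP70, rose from 379 and 389 to 690 and 700 RPKM, a difference of 0.86 ± 0.05. Hspd1, the mitochondrial chaperonin, rose by 0.58 ± 0.07 and Hsph1, an HSP70 exchange factor, by 0.67 ± 0.14. With knockout replicate 1 or 2 left out, Hsph1 was not called as deposited (limma adjusted p up to 0.197), and 3 heat shock genes were then called higher and 0 lower.

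Pluripotency factors were not lost as a group. Of 14 core factors, 3 were called higher and 7 lower as deposited, and 6 higher and 4 lower after quantile normalization. Among all genes 3.89% were higher and 57.4% lower as deposited, and 40.6% and 37.2% after quantile normalization. Pou5f1 was called higher by 0.18 ± 0.05 and Sox2, its partner, by 0.35 ± 0.16, with Sox2 at 60.7 and 50.3 RPKM against 38.9 and 47.7. L1td1, an RNA-binding protein gene of pluripotent cells, rose from 126 and 136 to 259 and 253 RPKM. Nanog fell from 111 and 122 RPKM to 38.6 and 35.5, a difference of -1.63 ± 0.14, and the RNA-binding regulator gene Lin28a fell from 122 and 133 to 37.9 and 35.5, a difference of -1.77 ± 0.14. The ligand genes Fgf4 and Gdf3 fell by 2.30 ± 0.27 and 2.48 ± 0.26, to under 0.5 RPKM in both knockout libraries. Without knockout replicate 1 or 2 the deposited calls of Pou5f1 and Sox2 ended (limma adjusted p up to 0.269 and 0.675), that of Sox2 also without wild-type replicate 1, and Pou5f1 was not called with cyclic loess normalization.

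Naive-state factors were low in both groups. Of 16, 7 passed the filter, and 6 of these were called lower as deposited (1 to 7 over the left-out libraries). After quantile normalization 1 was higher and 3 lower, against 40.6% and 37.2% of all genes. As deposited, 57.4% of all genes were lower. Esrrb, a nuclear receptor of the naive network, was at 2.17 and 2.90 RPKM in wild type and at 0.217 and 0.244 in the knockout, a difference of -1.51 ± 0.25. Klf4 stood at 2.70 and 3.81 against 1.30 and 1.31 RPKM, and was called lower as deposited (-0.87 ± 0.27) but not after quantile normalization (limma adjusted p = 0.0827). Both deposited calls ended with knockout replicate 1 or 2 left out (adjusted p up to 0.0596 for Esrrb and 0.399 for Klf4).

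Genes of the primed epiblast went in both directions, with 6 of 19 called higher and 7 lower as deposited, and 12 and 6 with quantile normalization. All genes together were 3.89% higher and 57.4% lower as deposited, and 40.6% and 37.2% with quantile normalization. Fgf5, the classical epiblast marker, rose from 4.31 and 5.99 RPKM to 19.2 and 17.1, a difference of 1.65 ± 0.27. The kinase gene Pim2 rose from 80.1 and 94.7 to 264 and 242 RPKM, a difference of 1.53 ± 0.10. Fgf15, another FGF ligand, fell from 13.1 and 18.1 to 2.24 and 2.25 RPKM. Otx2, a factor of the epiblast and forebrain, was at 13.9 and 14.1 against 14.7 and 19.5 RPKM and was not called as deposited (-0.26, limma adjusted p = 0.332), and it was called higher at 0.38 after quantile normalization. Pou3f1, an epiblast and neural factor, fell by 0.93 ± 0.26, and by 0.25 after quantile normalization. As deposited, the calls of Fgf5 and Pou3f1 ended with knockout replicate 1 or 2 left out (adjusted p up to 0.123 and 0.437), and the quantile call of Pou3f1 ended in 3 of the 4 leave-outs.

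Nodal signals through the same receptors as Activin, which was in the medium of both groups. Of 17 genes of this pathway 0 were called higher and 11 lower as deposited, and 5 higher and 8 lower after quantile normalization. The shares over all genes were 57.4% lower as deposited, and 40.6% higher and 37.2% lower after quantile normalization. Lefty1, a secreted inhibitor that Nodal signalling induces, fell from 248 and 287 RPKM to 21.3 and 18.8, a difference of -3.67 ± 0.13. Lefty2, its neighbour and relative, fell from 7.90 and 12.6 to 1.28 and 1.46 RPKM. Foxh1, the DNA-binding partner of SMAD2 and SMAD3, fell from 84.9 and 100 to 29.7 and 29.4 RPKM, a difference of -1.61 ± 0.15. Nodal itself, chosen here after its values were seen, was at 40.7 and 51.2 RPKM in wild type and 25.3 and 21.8 in the knockout, a difference of -0.93 ± 0.18. The deposited call of Nodal ended with knockout replicate 1 or 2 left out (limma adjusted p up to 0.179).

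Streak genes linked to Wnt signalling were among the largest rises. T (Brachyury), the mesoderm factor, was at 37.4 and 33.7 RPKM in the knockout and at 1.94 and 2.89 in wild type, a difference of 3.43 ± 0.27 (4.00 after quantile normalization, limma adjusted p = 4.0e-07). Wnt3, the ligand that starts the streak, rose from 3.47 and 4.79 to 19.2 and 17.3 RPKM, a difference of 1.92 ± 0.27. Wnt8a, another streak ligand, rose from 0.507 and 0.385 to 18.2 and 16.5 RPKM, a difference of 3.66 ± 0.29. Eomes, a factor of mesendoderm and trophoblast, rose from 1.07 and 1.30 to 6.64 and 6.55 RPKM. Both knockout libraries were above both wild-type libraries in all 4 of these genes, against 6.76% of all genes. T, Wnt3 and Wnt8a are among the 15 largest rises, for which such non-overlap was required.

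The rest of the streak list did not share this. Of its 13 genes only 5 passed the filter, 3 of them called higher and 2 lower as deposited (2 higher and 0 lower with knockout replicate 1 or 2 left out), and 3 and 1 after quantile normalization. Fgf8, which cells leaving the streak express, fell from 5.82 and 9.26 to 2.00 and 1.37 RPKM, and Mixl1 and Mesp1, streak and early mesoderm factors, stayed under 0.6 RPKM in all 4 libraries. Of 11 Wnt-linked genes 4 were called higher (T, Wnt3, Wnt8a and Lef1) and 3 lower as deposited (2 to 4 and 0 to 7 over the left-out libraries), and 7 and 2 after quantile normalization. The counts of both lists stand against 3.89% of all genes higher and 57.4% lower as deposited, and 40.6% and 37.2% after quantile normalization. Lef1, a nuclear partner of beta-catenin, rose by 0.99 ± 0.25, and Nkd1, a feedback inhibitor, fell from 4.05 and 6.25 to 0.819 and 0.782 RPKM. Without knockout replicate 1 or 2 the deposited calls of Wnt3, Lef1, Fgf8 and Nkd1 ended (limma adjusted p up to 0.0661, 0.337, 0.180 and 0.0733). XAV939, which keeps beta-catenin low, was in the medium of both groups.

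Readouts of other signals were mixed. Of 18 FGF-ERK feedback and early response genes 2 were called higher and 9 lower as deposited and 9 higher and 4 lower after quantile normalization. Over all genes the shares were 3.89% higher and 57.4% lower as deposited, and 40.6% and 37.2% after quantile normalization. The ETS factor gene Etv4 rose from 56.7 and 63.6 to 116 and 106 RPKM and the inhibitor gene Spry2 from 54.1 and 62.6 to 97.1 and 91.2, while Spry1 fell by 1.41 ± 0.25 and Fos by 1.05 ± 0.23. Among 9 BMP-linked genes Id2 rose from 20.4 and 27.6 to 77.2 and 71.7 RPKM and Id1 fell from 9.84 and 14.3 to 4.26 and 3.73, though both encode inhibitors of basic helix-loop-helix factors. Of 12 YAP-TEAD targets 9 were called lower as deposited (4 to 10 over the left-out libraries), and 3 higher and 6 lower after quantile normalization (median -0.06), against 57.4% of all genes lower as deposited and 37.2% after quantile normalization. The secreted matrix protein genes Ctgf and Cyr61, standard YAP targets, fell from 134 and 152 to 36.7 and 33.6 RPKM and from 120 and 137 to 35.0 and 31.0. Wwtr1, which encodes the YAP relative TAZ, fell by 1.26 ± 0.21. The deposited calls of Spry2, Spry1, Fos and Id1 ended with knockout replicate 1 or 2 left out (limma adjusted p up to 0.141, 0.135, 0.254 and 0.241) and that of Wwtr1 without knockout replicate 2 (0.0815).

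Single neural factors were lower, while their counts lay near those of all genes. Of 20, 10 passed the filter, and 1 of them was called higher and 6 lower as deposited (2 to 9 lower over the left-out libraries), and 4 and 5 after quantile normalization, against 57.4% of all genes lower as deposited and 40.6% higher and 37.2% lower after quantile normalization. Pax6, an early neural factor, was at 7.53 and 10.6 RPKM in wild type and at 1.00 and 0.921 in the knockout, a difference of -2.34 ± 0.29. Sox1, the earliest neural plate marker, fell from 8.34 and 10.9 to 1.71 and 1.65 RPKM, and Sox3 from 11.7 and 18.7 to 5.45 and 4.16. Irx3 fell by 1.68 ± 0.29. Nes, the intermediate filament gene of neural and other progenitors, rose instead, from 69.4 and 77.9 to 137 and 131 RPKM. The deposited calls of Sox3 and Irx3 ended with knockout replicate 1 or 2 left out (limma adjusted p up to 0.211 and 0.163) and that of Sox1 without knockout replicate 2 (0.0558).

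Hox genes and factors of other lineages were low in both groups. Of 38 Hox genes 13 passed the filter, and 0 of them were called higher and 11 lower as deposited (2 and 7 after quantile normalization). Among all genes 57.4% were lower as deposited and 37.2% after quantile normalization. Hoxb2 fell by 1.86 ± 0.26, and Hoxa9 was at 3.79 and 6.16 RPKM in wild type and 1.47 and 1.08 in the knockout. The endoderm factor gene Gata4 was at 1.18 and 1.05 RPKM in the knockout and up to 2.31 in wild type and was not called as deposited (-0.44, limma adjusted p = 0.127). Gata6 and Cdx2 did not reach the filter. Of 23 germline genes 4 passed, and Dmc1, the meiotic recombinase, fell from 6.82 and 10.8 to 0.270 and 0.505 RPKM. As deposited, 1 Hox gene was called lower with knockout replicate 1 or 2 left out, and the call of Hoxa9 ended (adjusted p up to 0.248).

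**Figure D3:**
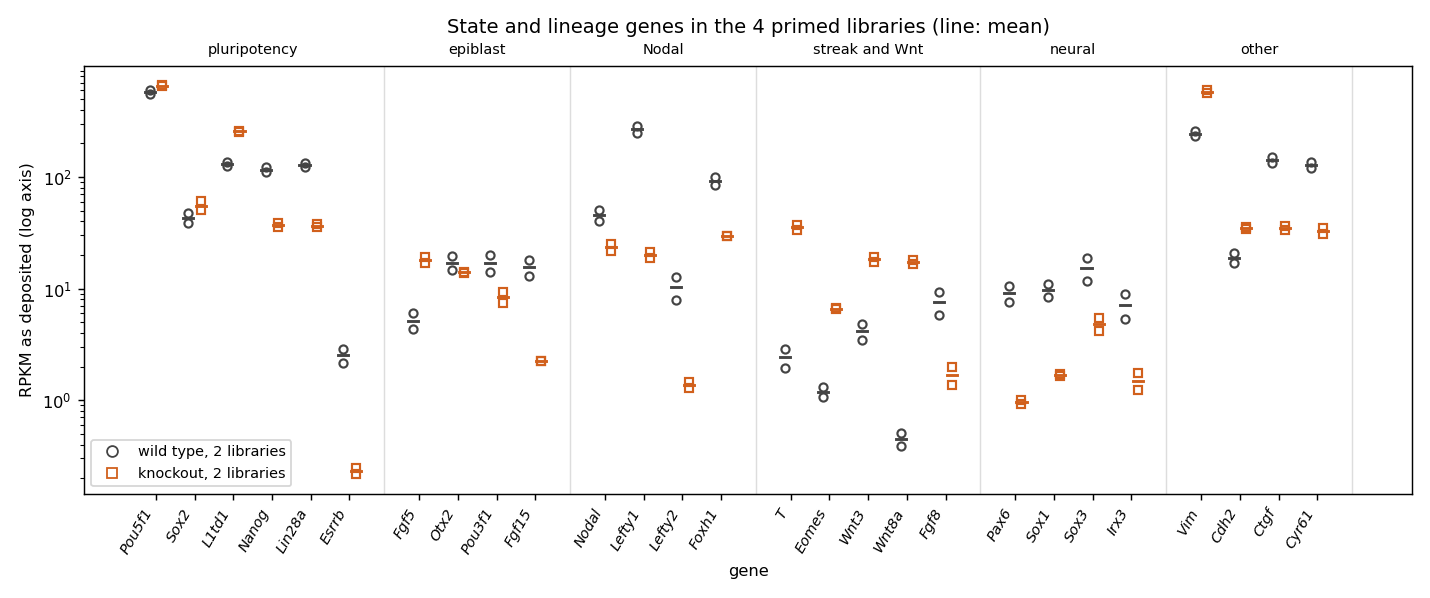
Deposited RPKM (log axis) of 27 state and lineage genes (x axis) in the 2 wild-type libraries (grey circles) and the 2 knockout libraries (orange squares), with a line at each mean. T, Eomes, Wnt3, Wnt8a and Fgf5 lie higher in the knockout, and Nanog, Lefty1, Lefty2, Pax6 and Sox1 lower, while Otx2 lies near wild type.

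Of 33 mesenchymal and matrix genes 7 were called higher and 17 lower as deposited, and 15 and 10 after quantile normalization, against 57.4% of all genes lower as deposited and 40.6% higher and 37.2% lower after quantile normalization. Vim, the mesenchymal intermediate filament, rose from 232 and 258 to 601 and 561 RPKM, a difference of 1.24 ± 0.06, and Cdh2 (N-cadherin) from 16.9 and 20.9 to 35.7 and 33.9. The fibrillar collagen genes Col3a1 and Col1a2 fell by 1.26 ± 0.24 and 1.49 ± 0.28. Among 19 epithelial markers 2 were called higher and 9 lower as deposited (0 to 4 and 4 to 12 over the left-out libraries), and 10 and 7 after quantile normalization. The keratin gene Krt8 rose from 20.8 and 24.9 to 40.7 and 36.9 RPKM, and the vesicle GTPase gene Rab25 fell from 24.8 and 35.8 to 6.82 and 6.87. With knockout replicate 1 or 2 left out, the deposited calls of Cdh2, Col3a1, Col1a2 and Krt8 ended (limma adjusted p up to 0.268, 0.161, 0.183 and 0.328), leaving 1 mesenchymal gene called higher and 1 lower.

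No list had more genes called higher as deposited than the arrest targets of p53, which responds to DNA damage and other stress by stopping the cell cycle and starting cell death. Of 29 arrest and feedback targets 16 were called higher and 8 lower as deposited (10 to 18 and 1 to 10 over the left-out libraries) and 21 higher and 6 lower after quantile normalization, against 3.89% and 40.6% of all genes called higher. The medians were 0.52 and 1.07. Plk2, a kinase gene, rose by 2.45 after quantile normalization and the carbonyl reductase gene Dcxr from 10.7 and 13.8 to 43.8 and 37.4. Mdm2, the p53 ubiquitin ligase, rose by 2.02 ± 0.11 and Cdkn1a, the cell-cycle inhibitor p21, by 1.76 ± 0.11. Gadd45a, which ATF4 can also induce, fell from 52.9 and 69.0 to 14.1 and 13.1 RPKM. Gdf15, Ddb2 and Rrm2b fell too, with differences of -1.68 ± 0.27, -1.30 ± 0.29 and -1.21 ± 0.28. After quantile normalization these were -1.03, -0.54 and -0.44.

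Death targets of p53 were split. Of 14, 7 were called higher and 5 lower as deposited, and 9 and 3 after quantile normalization. Among all genes 3.89% were higher and 57.4% lower as deposited, and 40.6% and 37.2% after quantile normalization. Perp, a desmosome and death gene, rose by 2.15 ± 0.14, Pidd1, the scaffold that activates caspase-2, from 27.3 and 32.9 to 75.1 and 67.1 RPKM, and Apaf1, the apoptosome scaffold, from 17.3 and 21.3 to 36.8 and 34.2. The BH3-only killer gene Bbc3 (PUMA) was at 37.2 and 49.1 RPKM in wild type and 27.3 and 19.3 in the knockout, and was called lower both ways (-0.87 ± 0.18 and -0.38). As deposited, the calls of Apaf1 and Bbc3 ended with knockout replicate 1 or 2 left out (limma adjusted p up to 0.272 and 0.331), the call of Bbc3 after quantile normalization ended in 3 of the 4 leave-outs, and 2 death targets were then called higher and 1 lower as deposited.

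Glycolysis genes were mostly called lower in both scalings. Among all genes 3.89% were higher and 57.4% lower as deposited, and 40.6% and 37.2% after quantile normalization. Of 24 glycolysis genes 1 was called higher and 21 lower as deposited and 5 and 18 after quantile normalization, with medians of -1.10 and -0.65. Slc2a3, a glucose carrier, fell from 927 and 947 RPKM to 191 and 185, and Pfkp, a phosphofructokinase, from 20.2 and 25.9 to 2.83 and 2.95. Ldhb, the lactate dehydrogenase subunit that favours pyruvate, rose from 69.8 and 76.8 to 127 and 124 RPKM. Of 20 hypoxia-inducible genes outside glycolysis 1 was called higher and 18 lower as deposited, and 2 and 16 after quantile normalization. Vegfa, the angiogenic ligand and also an ATF4 target, fell from 88.0 and 105 to 4.57 and 4.73 RPKM, Stc2 from 75.5 and 88.2 to 6.12 and 5.88, and the mitophagy gene Bnip3 from 19.4 and 23.3 to 4.38 and 4.44. With knockout replicate 1 or 2 left out, the deposited counts were 13 lower for glycolysis in both cases, and 7 and 6 lower for the hypoxia genes.

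Of 22 enzymes of the TCA cycle 0 were called higher and 16 lower as deposited (57.4% of all genes lower), and 6 and 12 after quantile normalization, against 40.6% and 37.2% of all genes. Suclg2, a subunit of succinyl-CoA ligase, fell from 38.2 and 46.9 to 7.64 and 7.29 RPKM, and Sdha, the flavoprotein of succinate dehydrogenase, from 122 and 132 to 51.4 and 49.4. Of 69 genes of the respiratory chain and ATP synthase 9 were called higher and 39 lower as deposited and 26 and 31 after quantile normalization. The complex I subunit gene Ndufa13 fell from 78.2 and 95.8 to 17.1 and 14.5 RPKM, while Ndufa4, now counted to complex IV, rose from 295 and 309 to 474 and 459. The cristae protein gene Chchd10, which is in no list and is among the largest falls, went from 389 and 443 to 33.7 and 25.8 RPKM. The deposited counts called lower, without knockout replicate 1 and 2 in turn, were 8 and 6 for the TCA cycle and 19 and 10 for the respiratory chain, of which 4 genes were called higher in both cases.

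Genes of lipid synthesis are set against 3.89% of all genes called higher as deposited and 40.6% after quantile normalization. Of 23 cholesterol synthesis genes 10 were called higher and 3 lower as deposited, and 20 higher and 1 lower after quantile normalization (medians 0.36 and 0.80). Msmo1, which removes methyl groups from sterols, rose from 67.1 and 73.7 to 126 and 118 RPKM, a difference of 0.79 ± 0.12. Of 14 fatty acid synthesis genes 3 were called higher and 3 lower as deposited, and 11 and 3 after quantile normalization. Fasn, fatty acid synthase, rose from 84.1 and 97.1 to 269 and 250 RPKM, a difference of 1.51 ± 0.10. The desaturase gene Scd2 rose from 192 and 204 to 343 and 334. As deposited, 2 cholesterol and 3 fatty acid genes were called higher with knockout replicate 1 or 2 left out, while the quantile counts were 19 to 20 and 11.

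**Figure D4:**
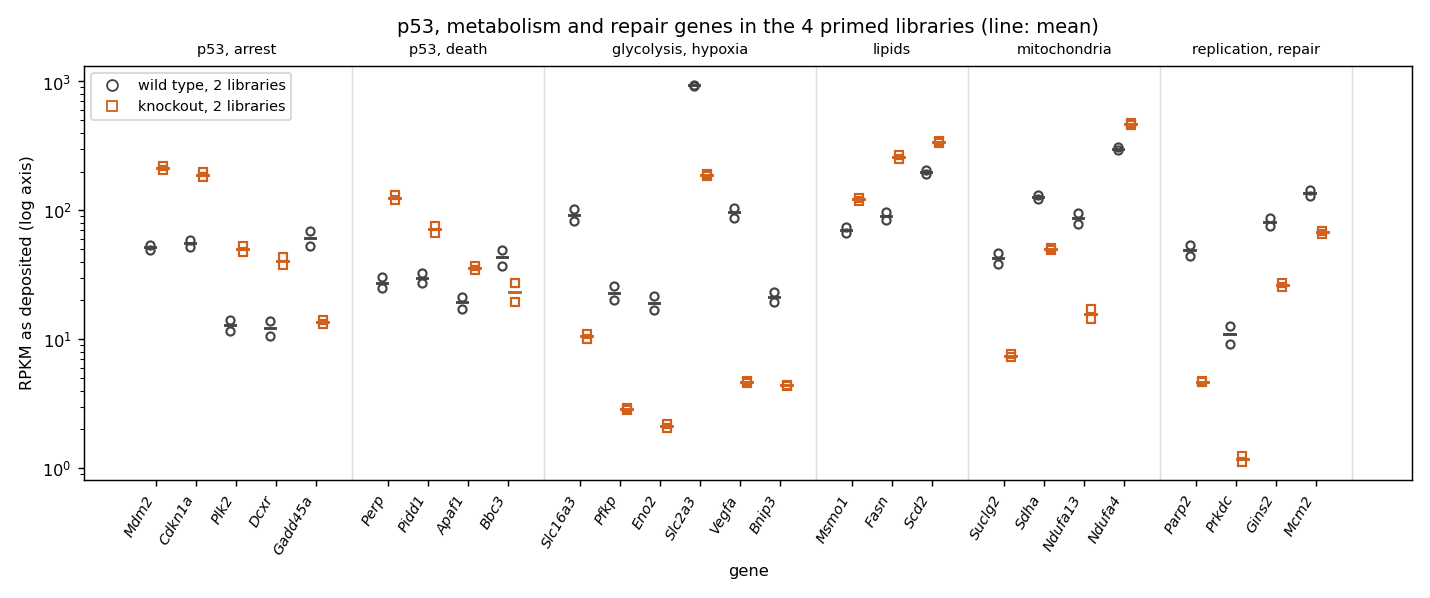
Deposited RPKM (log axis) of 26 genes of p53 response, metabolism and DNA maintenance (x axis) in the 2 wild-type libraries (grey circles) and the 2 knockout libraries (orange squares), with a line at each mean. Mdm2, Cdkn1a, Plk2, Perp, Msmo1 and Fasn lie higher in the knockout, and Gadd45a, Slc2a3, Vegfa, Suclg2 and Parp2 lower.

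Genes of growth and replication depended on the scaling. All genes together were 3.89% higher and 57.4% lower as deposited, and 40.6% and 37.2% after quantile normalization. Of 76 cytosolic ribosomal protein genes 71 were called lower as deposited, and 15 were higher and 48 lower after quantile normalization (medians -0.53 and -0.16). Of 27 ribosome biogenesis genes 4 were higher and 4 lower as deposited and 22 and 4 after quantile normalization, and of 31 proteasome subunits 6 and 8, and 22 and 6. Without knockout replicate 2, limma called 0 biogenesis genes and 0 proteasome genes higher as deposited, and 2 and 3 had an unadjusted p under 0.05 in that direction. It then called 0 and 2 lower, where 3 and 4 had an unadjusted p under 0.05. Utp20, which processes pre-rRNA, rose from 30.2 and 35.9 to 66.5 and 62.0 RPKM, and the proteasome subunit gene Psmd2 from 117 and 125 to 180 and 176. Of 25 genes of replication origins and helicases 0 were higher and 11 lower as deposited (3 to 17 lower over the left-out libraries) and 14 and 8 after quantile normalization. Gins2, a subunit of the replicative helicase, fell from 75.0 and 86.6 to 27.2 and 25.4 RPKM, and Mcm2 by 1.01 ± 0.12. The deposited calls of Utp20 and Psmd2 ended with knockout replicate 1 or 2 left out (limma adjusted p up to 0.101 and 0.0658).

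Among DNA repair genes, Parp2, which marks DNA breaks with poly(ADP-ribose), fell from 44.4 and 54.3 to 4.75 and 4.64 RPKM, a difference of -3.14 ± 0.23. Prkdc, the catalytic subunit of the DNA-dependent kinase of end joining, fell from 9.17 and 12.8 to 1.12 and 1.25 RPKM, a difference of -2.44 ± 0.29. Of all 30 repair and checkpoint genes 2 were called higher and 17 lower as deposited, and 13 each after quantile normalization, so the list as a whole lay near the background. Of 30 lysosomal genes 1 was called higher and 20 lower as deposited, and 10 and 16 after quantile normalization. Both lists stand against 3.89% of all genes higher and 57.4% lower as deposited, and 40.6% and 37.2% after quantile normalization. Hexa, a lysosomal hydrolase, fell from 38.0 and 44.9 to 6.82 and 6.23 RPKM, and Ctsd, the protease cathepsin D, rose from 94.9 and 104 to 191 and 186. The deposited counts called lower were 6 and 4 for repair and 3 and 3 for lysosomal genes with knockout replicate 1 or 2 left out.

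Imprinted genes are expressed from one parental copy. Of 18, 1 was called higher and 12 lower as deposited, and 5 and 10 after quantile normalization, against 57.4% of all genes lower as deposited and 37.2% after quantile normalization. The growth regulator gene Grb10 fell from 56.5 and 69.7 to 3.67 and 3.93 RPKM, a difference of -3.73 ± 0.23. The non-coding RNA gene H19 fell from 68.0 and 77.4 to 14.3 and 13.5 RPKM, and Phlda2 and Peg3 fell by 2.37 ± 0.28 and 1.79 ± 0.19. Peg10, which derives from a retrotransposon, rose from 28.7 and 34.0 to 85.4 and 79.6 RPKM. The deposited count was 7 lower with knockout replicate 1 or 2 left out.

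Several of the largest changes belong to no list. Nkx2-9, a homeobox gene, rose from 0.746 and 1.11 to 21.5 and 15.9 RPKM, a difference of 3.35 ± 0.29. The leukotriene B4 receptor genes Ltb4r1 and Ltb4r2, neighbours on chromosome 14 of GRCm38.p6 (55765962 to 55768492 and 55757922 to 55764066), rose by 3.01 ± 0.28 and 2.47 ± 0.27, and how reads of such close genes were divided is not stated. Slc4a11, a membrane transporter gene, rose from 8.27 and 11.4 to 45.5 and 42.6 RPKM and the membrane protein gene Itm2a from 18.2 and 21.2 to 84.2 and 78.3. Lpl, lipoprotein lipase, fell from 40.7 and 54.7 to 1.59 and 1.41 RPKM. H2-Bl, an MHC class I gene, fell from 58.2 and 72.7 to 0.855 and 0.715 RPKM, and its value is uncertain because near-identical class I genes can share reads.

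The difference between the states was tested as the knockout effect in primed cells minus that in naive cells, over all 8 libraries and 13428 genes. It was called higher for 290 genes (2.16%) and lower for 6368 (47.4%) as deposited, and for 4511 and 4137 after quantile normalization within each state. Chac1, Trib3, T and Wnt8a are among the largest changes in primed cells, and the same values enter this contrast. A large difference between the states was thus likely beforehand for them. Chac1 had a naive effect of -0.68 ± 0.22, so the primed effect was lower by 4.44 ± 0.32 (limma adjusted p = 4.5e-42). Trib3 had a naive effect of -0.07 ± 0.15, and its primed effect was lower by 5.29 ± 0.21. Its naive levels were 18.5 and 18.5 RPKM in the knockout and 21.6 and 17.7 in wild type. For T the naive effect had the other sign, -0.88 ± 0.28, with naive levels of 0.500 and 0.357 RPKM in the knockout and 2.44 and 1.01 in wild type, and the primed effect was higher by 4.31 ± 0.40. Wnt8a had a naive effect of 1.12 ± 0.28 as deposited, and its primed effect was higher by 2.55 ± 0.40. Its naive levels were 2.95 and 2.54 RPKM in the knockout and 1.11 and 0.410 in wild type. Mdm2 had a naive effect of 1.14 ± 0.09 as deposited, and its primed effect was higher by 0.88 ± 0.13. Ino80 itself had a naive effect of -0.02 ± 0.18, at 15.9 and 15.1 RPKM in the naive libraries with the knockout label and 17.0 and 14.5 in the others. The states thus also differed in the measured Ino80 loss, by -0.91 ± 0.26 as deposited and by -0.18 after quantile normalization (limma adjusted p = 0.0020 and 0.0154), and its part in the differences was not tested.

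**Figure D5:**
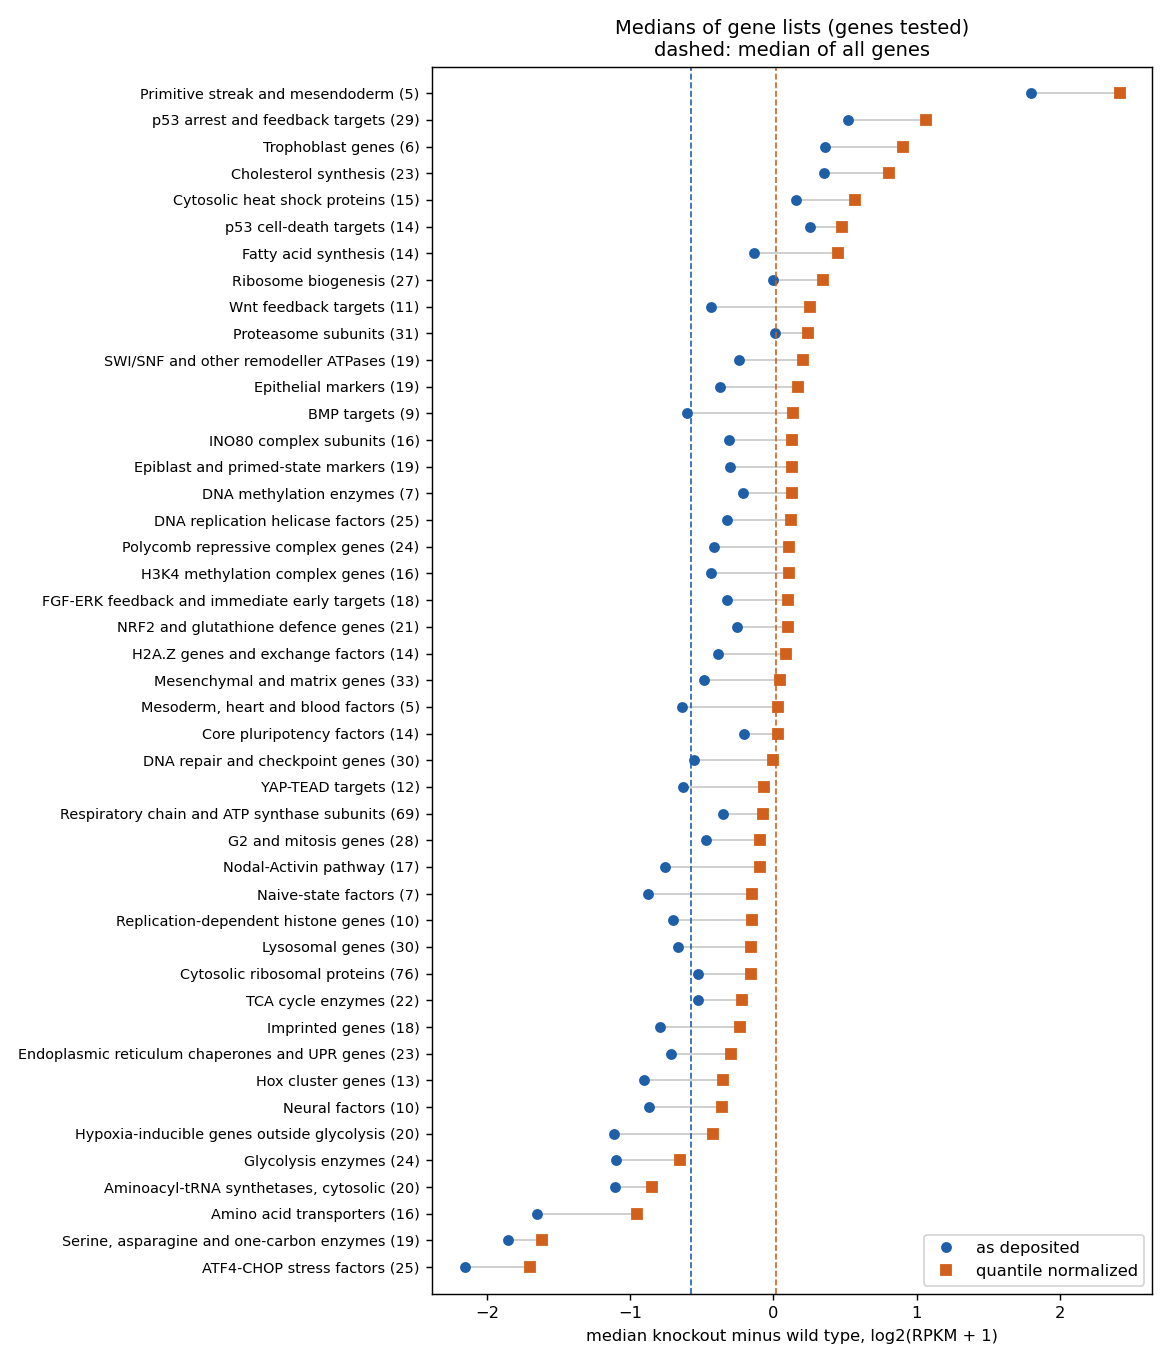
Median knockout minus wild type difference on the log2(RPKM + 1) scale (x axis) of each gene list with at least 5 tested genes (y axis, number of genes in brackets), as deposited (blue circles) and after quantile normalization (orange squares). The dashed lines are the medians of all genes, -0.58 and 0.02. The ATF4-CHOP list is the lowest by both measures, at -2.15 and -1.70, and p53 arrest targets lie at 0.52 and 1.07.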

How the data were processed

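Total RNA without ribosomal RNA was sequenced. The authors deposited 1 RPKM value per gene and library, made with cutadapt 1.9, STAR 2.5.2b, featureCounts 1.5.1 and affy on build mm9 per the submitters' processing notes, which give no settings here. The values had been scaled further in a way not given in the sources used here. None is 0, and the same 4501 rows are each tied with another row in every primed library. ERCC RNA went into the lysates, per the labels' protocols, but the files hold 0 ERCC rows. Depth is unknown, so no counting error can be given.

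A limma 3.58.1 model (R 4.3.3) of 2 group means was fitted to log2(RPKM + 1) with a variance trend, and p-values were adjusted over all genes tested. As deposited, limma's prior degrees of freedom were infinite, so every gene took its variance from the trend and large changes have very small p. After quantile normalization over all rows they were 3.70. On simulated data for this comparison with 12225 genes, 23 of 67 genes changed 1.5-fold were called, 62 of 67 changed 2-fold, 66 of 66 changed 4-fold and 5 of 12025 unchanged ones. The simulated noise was drawn for each gene separately and held no shift of whole libraries. It therefore gives no error rate for the deposited values, where the libraries differ in scale. The difference of effects between states used 4 group means.

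The members and lists were chosen with earlier results of these data known. Genes named are Ino80 and markers, the 15 largest rises and falls with non-overlapping libraries and a mean of at least 5 RPKM in the higher group, and up to 4 called members per direction of each list with at least 2 RPKM. Not all of them are described, and some are not reported here. Names turned into dates (26 rows) are not named. Of all names, 24051 match a current symbol, 347 an older one and 107 none. Alternatives were median centring, cyclic loess, a pseudocount of 0.1, no filter or one of 5 RPKM, all 8 libraries, no trend, the replicate number as a block and each library left out in turn. Figures used matplotlib 3.10.9.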

Additional observations from a re-analysis of the deposited data

Results flagged for a closer look

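The results here are those in which the knockout effect differed between the states by limma's test of the difference itself, primed minus naive. It was called higher for 290 genes and lower for 6368. Trib3, Chac1, Wnt8a, T and H2-Bl are among the largest changes in primed cells, so large differences were likely beforehand for them. The differences as deposited were -0.91 for Ino80 (-0.18 after quantile normalization), 0.88 for Mdm2, 1.39 for Cdkn1a, -5.29 for Trib3, -4.44 for Chac1, -1.67 for Slc16a3, 2.55 for Wnt8a, 4.31 for T and -4.53 for H2-Bl, on the log2(RPKM + 1) scale.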

How the results depend on the processing

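Scaling decided the balance of calls: the median of all genes lies at -0.58 as deposited and 0.02 after quantile normalization. Against 476 genes higher and 7016 lower, 4959 were higher and 4547 lower with quantile normalization, 5448 and 3722 with median centring, and 4481 and 4937 with cyclic loess. Over the left-out libraries the counts ran from 73 to 1134 higher and from 869 to 10108 lower. With the replicate number as a block they were 223 and 3599, and Ino80 was at -0.93 with a limma adjusted p of 0.0663. Same-numbered libraries did not deviate together (correlation -0.0035 as deposited and -0.131 after quantile normalization), and a crossed pairing, added after the data were seen, gave 579 and 7307 as deposited and 5126 and 4657 after quantile normalization. Ino80 ran from -1.10 to -0.77 over the left-out libraries, and its call ended without knockout replicate 1 (-0.96) or 2 (-0.91). The difference between states gave 4511 higher and 4137 lower with quantile normalization, and over the left-out libraries 148 to 448 higher and 3278 to 9014 lower. Some genes changed sign: H2afz was at 0.054 with quantile normalization and 0.47 with median centring, and Anp32e at 0.056 with median centring. Otx2, Dnmt3b and Gata4, not called as deposited, were at 0.38, 0.12 and 0.22 with quantile normalization, 0.42, 0.60 and 0.24 with median centring and 0.33, 0.056 and 0.20 with cyclic loess. The cause of these changes was not tested. Of 180 genes listed for the text, 177 were called as deposited, and 110 of these under every alternative, while 178 were called after quantile normalization, and 174 of these kept the call without each library in turn. With 1 library left in a group, it is assumed to vary like the other group.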

Other observations

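The CpG content of promoters went with the size of the change. Among 9277 tested genes with a RefSeq promoter entry, the share with a difference of at least 1 in either direction after quantile normalization was 12.8% for promoters with the lowest observed-to-expected CpG ratio, 7.70% for the middle and 5.98% for the highest of 3 equal groups. The shares called higher were 40.0%, 41.7% and 44.4%, and those called lower 38.8%, 38.1% and 34.4%. CpG-rich promoters are the kind at which bivalent marks are usually found, and no histone data were used here.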
